A study of Homo sapiens with 6 samples.

Results

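The 9 genes described here encode NRAS and HRAS, which are RAS GTPases, and 7 proteins that attach the lipid anchor of RAS, trim and methylate its end, or carry it between membranes. They were chosen by symbol from a table of 63677 genes (*NRAS*, *HRAS*, *FNTA*, *FNTB*, *PGGT1B*, *RCE1*, *ZMPSTE24*, *ICMT* and *PDE6D*), with the differences of *NRAS* and *ICMT* between the conditions already known. The table holds reads per gene for poly(A) RNA of cells labelled LoVo, an established human colorectal cancer line. In 3 scramble libraries the cells had received a negative control siRNA, and in 3 siSNHG15 libraries they had received a mixture of 2 siRNAs against the long noncoding RNA *SNHG15*. All were transfected at 25 nM and collected after 48 h, with no other genotype or drug. Since both siRNAs were given together, an effect of either one by itself cannot be told apart in these libraries.

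RAS proteins are membrane switches that pass growth signals on while they hold GTP. They are made in the cytosol and end in a CAAX motif, a cysteine followed by 3 more residues. Farnesyltransferase, a dimer of FNTA and FNTB, adds a farnesyl lipid to that cysteine. The geranylgeranyl transferase of type I pairs the same FNTA subunit with PGGT1B and adds a longer lipid to other small GTPases. At the endoplasmic reticulum RCE1 then removes the AAX residues and ICMT methylates the new end. ZMPSTE24 is another CAAX protease, best known for processing prelamin A. PDE6D is a chaperone that binds farnesylated RAS and moves it through the cytosol.

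The libraries held 3446922 to 10256710 counts each, and the shallowest was scramble replicate 3. Values are CPM, counts brought to a common library size with edgeR's trimmed mean of M values, and are given with the SD over 3 libraries. *SNHG15*, the target, was at 276 ± 14.3 CPM in scramble and 82.5 ± 4.997 CPM in siSNHG15 libraries. The markers of the labelled tissue were mostly absent. Of 10 colorectal epithelial markers, *KRT8* (41.6 to 68.3 CPM over the 6 libraries), *CDX2* (25.4 to 29.0 CPM) and *KRT18* (20.2 to 28.9 CPM) were above 3 counts, while *KRT20*, *CDX1*, *VIL1* and *CDH17* had 0 counts in every library and *EPCAM*, *GPA33* and *CEACAM5* had at most 2. The summed level of the 10 was 95.9 to 102 CPM in scramble and 101 to 114 CPM in siSNHG15 libraries. Of 8 markers of leukocytes, endothelium, fibroblasts and hepatocytes, *COL1A1* alone passed 3 counts in any library (2 to 9 counts), and the sum of the 8 was 0.469 to 0.605 CPM in scramble and 0.575 to 1.39 CPM in siSNHG15 libraries. The part of such cells in the results was not tested. In bulk RNA, fewer cells of a type and less RNA per cell cannot be told apart.

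*NRAS* and *ICMT* were lower in the siSNHG15 libraries, at 36.9% and 46.8% of their scramble means, and the other 7 members stayed between 78.1% of the scramble mean (*RCE1*) and 1.39-fold (*ZMPSTE24*). In edgeR's quasi-likelihood test, 2 of the 9 members had an adjusted p under 0.05 (Benjamini-Hochberg over 12507 genes), both lower, where 5.36% of all genes tested passed in either direction 2.23% passed as lower and 3.13% as higher. DESeq2 and a fit with a replicate block also called these 2 members, where they called 5.8% and 4.34% of the genes tested. In 4 of the 9 members the conditions did not overlap in CPM, 3 lower and 1 higher, against 28.8% of all genes tested (14.1% lower and 14.7% higher). An unadjusted p under 0.05 was reached by 4 of the 9 and by 22.5% of all genes tested. The members were chosen with this contrast in view, so these counts and the members' differences are a description and support nothing by themselves. The median log2 fold change of the 9 was -0.10, and that of all genes tested was 0.00050. All 9 members passed the filter on low counts.

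*NRAS* (ENSG00000213281) lies on the minus strand of GRCh37 at chr1:115247090-115259392. Its level was 65.5, 61.4 and 64.7 CPM in scramble replicates 1 to 3 and 21.9, 23.0 and 25.7 CPM in siSNHG15 replicates 1 to 3. The siSNHG15 libraries were close to each other and all far under the lowest scramble library. The means were 63.9 ± 2.20 and 23.5 ± 1.96 CPM, a log2 fold change of -1.44 (SE 0.14, 95% interval -1.73 to -1.14). These levels rest on 214 to 617 counts per scramble library and 158 to 219 per siSNHG15 library. Leaving out each library in turn gave -1.50 to -1.39, and *NRAS* passed the threshold in 6 of 6 such fits.

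*ICMT* (ENSG00000116237) encodes isoprenylcysteine carboxyl methyltransferase and lies on the minus strand at chr1:6281253-6296032. It was at 149.6, 141 and 150.3 CPM in the scramble libraries and at 73.8, 65.9 and 66.9 CPM in the siSNHG15 libraries. Again the conditions were well apart, with little spread inside either. The means were 147 ± 5.11 and 68.9 ± 4.27 CPM, and the log2 fold change was -1.09 (SE 0.12, 95% interval -1.35 to -0.84). With each library left out it lay between -1.15 and -1.06 and passed the threshold in 6 of 6 fits. The transcripts of *NRAS* and of the enzyme for the last CAAX step were thus both lower in the siSNHG15 libraries.

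**Figure D1:**
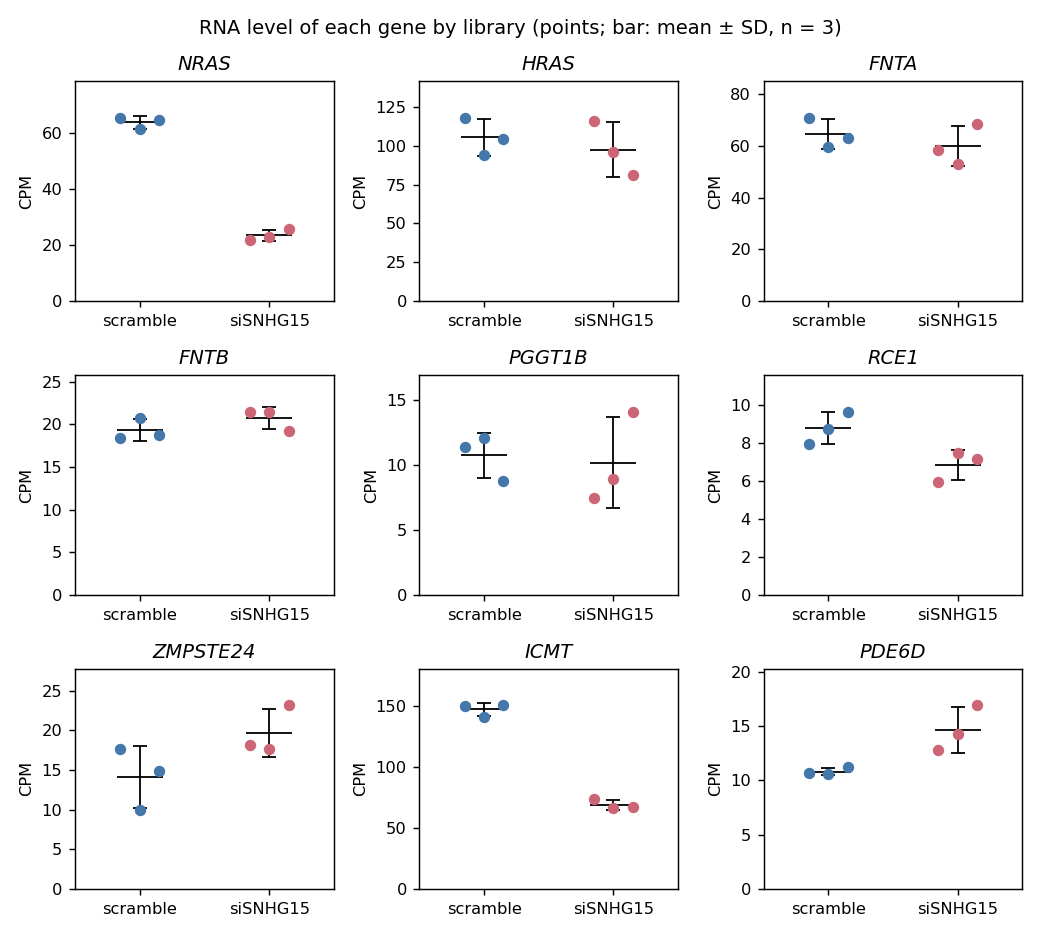
CPM (vertical axis from 0, scaled for each gene) of the 9 members, with 1 panel per gene, 1 point per library (scramble in blue, siSNHG15 in red) and bars for the mean ± SD (n = 3). *NRAS* and *ICMT* show wide gaps between the conditions (63.9 against 23.5 CPM and 147 against 68.9 CPM), whereas *HRAS*, *FNTA*, *FNTB*, *PGGT1B* and *ZMPSTE24* overlap.

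A small interfering RNA can also pair with other transcripts through its seed, bases 2 to 8 of the strand that is loaded. The seed matches of the guide strands are a sequence feature that the choice of members did not use directly. The choice was made with the lower levels of *NRAS* and *ICMT* known, however. Over all genes other than the members, the share called lower rose with the number of guide matches, as did 3′ UTR length (below). At 3′ UTR lengths like that of *NRAS*, 0 of 11 genes with 4 or more matches were called lower. At lengths like that of *ICMT* it was 0 of 12. The match counts of *NRAS* and *ICMT* cannot be taken as independent of the choice. Each window is 19 bases of the sense strand from the GRCh37 genome, in lower case with the match in capitals. The places where both siRNAs pair with *SNHG15* on the minus strand of chromosome 7 are chr7:45023964-45023982 (siRNA 1) and chr7:45025640-45025658 (siRNA 2), and each stretch is in 12 of 14 annotated *SNHG15* transcripts.
SNHG15, siRNA 1: ccttgagtctcATGTTCAa
SNHG15, siRNA 2: gagcttactgtCACAGCAa

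The 3′ UTR of the canonical *NRAS* transcript (3625 nucleotides) held 2 matches to each guide seed, at chr1:115249667-115249685 and chr1:115248029-115248047 for siRNA 1 and at chr1:115250445-115250463 and chr1:115249492-115249510 for siRNA 2. In that order their windows are as follows.
NRAS, siRNA 1, 1041 nucleotides after the stop codon: tacatttgcagATGTTCAa
NRAS, siRNA 1, 2679 nucleotides after it: ttaaaggttacATGTTCAa
NRAS, siRNA 2, 263 nucleotides after it: ctgggttcttcCACAGCAc
NRAS, siRNA 2, 1216 nucleotides after it: acagcttccccCACAGCAa

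The *ICMT* 3′ UTR (3887 nucleotides) held 1 match to the seed of siRNA 1, at chr1:6283592-6283610, and 3 to that of siRNA 2, at chr1:6284893-6284911, chr1:6284755-6284773 and chr1:6281611-6281629.
ICMT, siRNA 1, 1541 nucleotides after the stop codon: acctaaaatgtATGTTCAg
ICMT, siRNA 2, 240 nucleotides after it: aaggggcaaatCACAGCAa
ICMT, siRNA 2, 378 nucleotides after it: cagcaacactcCACAGCAg
ICMT, siRNA 2, 3522 nucleotides after it: cccacgatacgCACAGCAc

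*PGGT1B*, with the longest 3′ UTR of the members (8390 nucleotides), held 1 match to each guide seed, at chr5:114546152-114546170 and chr5:114546140-114546158. These windows overlap each other.
PGGT1B, siRNA 1, 1940 nucleotides after the stop codon: tggactagtaaATGTTCAc
PGGT1B, siRNA 2, 1952 nucleotides after it: tgttcacattcCACAGCAa

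Outside the seed, the *NRAS* and *ICMT* windows had the same base as the *SNHG15* stretch at 1 to 4 of 12 positions, and the *PGGT1B* windows at 0 and 2. None of the member windows was therefore close to a full-length match. The 3′ UTRs of *ZMPSTE24* (1511 nucleotides), *FNTB* (1338), *PDE6D* (519), *FNTA* (503), *RCE1* (457) and *HRAS* (286) held no match to either guide seed. The search for guide seeds covered ATGTTCA and CACAGCA in the sense (mRNA) sequence only, which is the sequence that a guide strand can pair with. A match is a description of the sequence, not a site shown to be bound.

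Matches become more frequent in longer 3′ UTRs, so each count was read against 3′ UTRs of similar length. Of 10477 3′ UTRs, 16.1% held at least 1 match to the guide seed of siRNA 1 and 16.9% at least 1 to that of siRNA 2. Among 1272 3′ UTRs within 20% of the *NRAS* length, 0.943% held 4 or more guide matches and the median was 1. Among 1190 within 20% of the *ICMT* length, 1.09% held as many as the 4 in *ICMT*. The 2 matches in *PGGT1B* were at the median of its length class, where 50.6% of 271 3′ UTRs held as many. For the passenger strands, *ICMT* held 1 match to ACTCAAG (siRNA 1, in 9.87% of all 3′ UTRs) and 1 to GTAAGCT (siRNA 2, in 6.89%), *PGGT1B* held 2 to GTAAGCT, and the other members held 0. The seeds of the control siRNA, CGACTGG and CGCGACT, which 1.57% and 0.391% of all 3′ UTRs hold, had no match in any member.

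Over all genes with a 3′ UTR other than the members, the share called lower was 1.89% of 7506 genes with 0 guide matches, 3.29% of 2009 with 1, 4.28% of 654 with 2, 4.85% of 206 with 3 and 6.45% of 93 with 4 or more. The shares called higher were 3.10%, 2.29%, 2.45%, 1.46% and 4.30% in the same order. The 3′ UTRs lengthened along with the matches, from a median of 920 nucleotides at 0 matches to 7382 at 4 or more. In the *NRAS* length class the shares were 1.60% of 626, 1.97% of 406, 3.80% of 184 and 6.82% of 44 genes for 0, 1, 2 and 3 matches, and 0 of 11 genes with 4 or more. In the *ICMT* length class they were 1.47% of 544, 2.01% of 399, 5.59% of 179 and 5.45% of 55 genes, and 0 of 12 with 4 or more. The part of the seed matches in the lower levels of *NRAS* and *ICMT* was not tested.

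**Figure D2:**
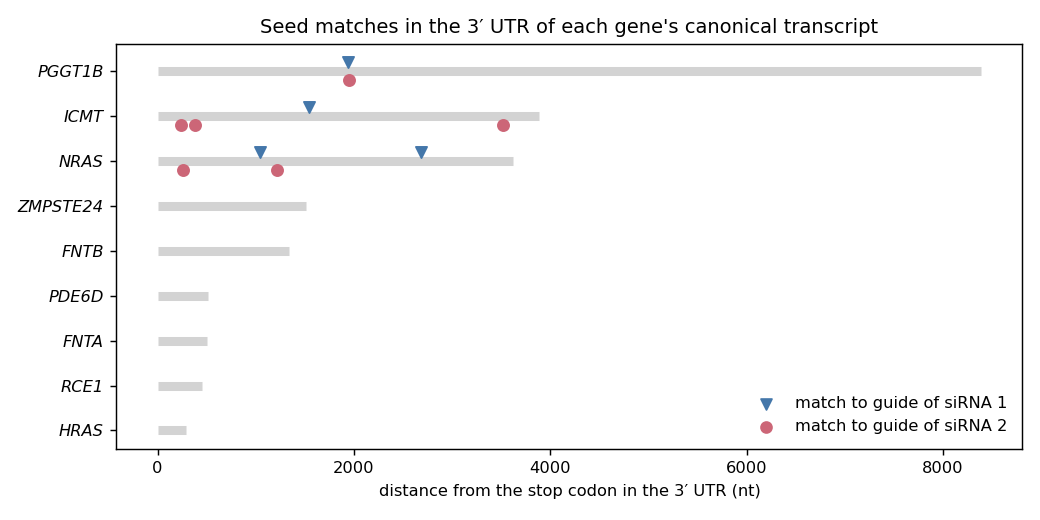
Seed matches of the guide strands along the 3′ UTR of the 9 members, in nucleotides from the stop codon (horizontal axis), with siRNA 1 (triangles above the bar) and siRNA 2 (circles below it) and grey bars for the length of each 3′ UTR. *NRAS* and *ICMT* hold 4 matches each, *PGGT1B* holds 2 whose windows overlap, and the other 6 members hold 0.

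*HRAS* (ENSG00000174775, minus strand, chr11:532242-537321) is the other RAS GTPase among the members. It was at 118, 94.1 and 104 CPM in scramble and 116, 95.8 and 80.9 CPM in siSNHG15 libraries. These ranges overlapped, and the means of 105 ± 12.0 and 97.4 ± 17.4 CPM differed by less than the spread between replicates. The log2 fold change was -0.11 (SE 0.15, 95% interval -0.44 to 0.21). Without siSNHG15 replicate 3, the lowest library, it was 0.01.

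The 3 prenyltransferase subunits overlapped between conditions, and *PGGT1B* was the most variable of them. *FNTA* (ENSG00000168522, plus strand, chr8:42889337-42940931), the alpha subunit that both enzymes share, was at 70.8, 59.5 and 62.9 CPM in scramble and 58.5, 53.1 and 68.4 CPM in siSNHG15 libraries, a log2 fold change of -0.10 (SE 0.14, 95% interval -0.40 to 0.20). *FNTB* (ENSG00000257365, plus strand, chr14:65453613-65529370), the beta subunit of farnesyltransferase, was at 18.4, 20.8 and 18.7 CPM and at 21.5, 21.4 and 19.3 CPM, a log2 fold change of 0.09 (SE 0.15, 95% interval -0.22 to 0.41). Both subunits of farnesyltransferase thus overlapped between conditions. *PGGT1B* (ENSG00000164219, minus strand, chr5:114539709-114598574), the beta subunit of the type I geranylgeranyl transferase, was at 11.4, 12.0 and 8.77 CPM in scramble and 7.49, 8.92 and 14.1 CPM in siSNHG15 libraries. The siSNHG15 libraries held both its highest and its lowest value. Its log2 fold change of -0.10 (SE 0.24, 95% interval -0.61 to 0.41) turned to 0.07 without siSNHG15 replicate 1 and was -0.42 without siSNHG15 replicate 3.

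The CAAX proteases had opposite signs. *RCE1* (ENSG00000173653, plus strand, chr11:66610306-66614023), which trims RAS proteins, was at 7.97, 8.75 and 9.68 CPM in scramble and 5.96, 7.48 and 7.16 CPM in siSNHG15 libraries. Its conditions did not overlap, but its log2 fold change of -0.34 (SE 0.20, 95% interval -0.77 to 0.09) did not pass the threshold and rests on 32 to 88 counts per library. *ZMPSTE24* (ENSG00000084073, plus strand, chr1:40723713-40759852) was at 17.7, 9.95 and 14.8 CPM in scramble and 18.2, 17.7 and 23.1 CPM in siSNHG15 libraries. The highest scramble library and the lowest siSNHG15 library met at 17.7 CPM. Its log2 fold change was 0.49 (SE 0.21, 95% interval 0.03 to 0.95) and did not pass the threshold after adjustment. Without scramble replicate 2, its lowest library, it was 0.26, and without scramble replicate 1 it was 0.73.

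*PDE6D* (ENSG00000156973, minus strand, chr2:232597143-232650982), the chaperone of farnesylated RAS, was the member with the clearest difference upward. It was at 10.7, 10.5 and 11.2 CPM in scramble and at 12.8, 14.2 and 16.9 CPM in siSNHG15 libraries. All siSNHG15 libraries lay above all scramble libraries, at 1.36-fold on average, with 37 to 144 counts per library. The log2 fold change was 0.45 (SE 0.17, 95% interval 0.07 to 0.83), and it did not pass the threshold after adjustment. Without any 1 library it lay between 0.33 and 0.54.

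**Figure D3:**
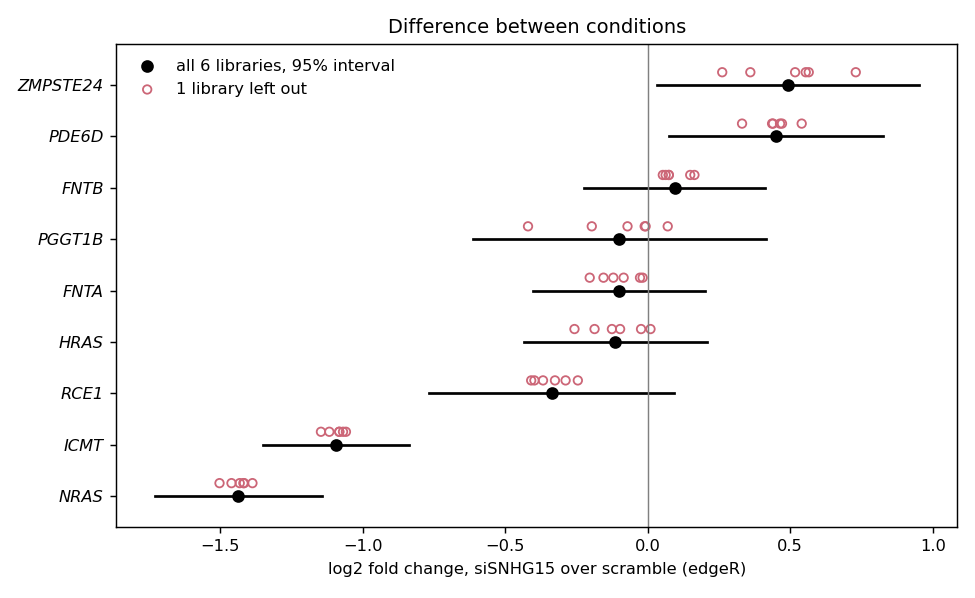
Log2 fold change of siSNHG15 against scramble (horizontal axis) for the 9 members, as black points with 95% intervals from the edgeR fit over all genes, and open circles for the 6 fits without 1 library. *NRAS* (-1.44) and *ICMT* (-1.09) stand apart from the other 7, which lie between -0.34 (*RCE1*) and 0.49 (*ZMPSTE24*).

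Some members share exon bases with other genes, and whether the counting used strand is not given in the sources used here. *FNTB* shares 1661 of its 3773 exon bases with the same-strand readthrough gene *CHURC1-FNTB*, which had 0 counts in every library, and 21.8% with *MAX* on the other strand, which had 270 to 990 counts. *RCE1* shares 19.0% with *C11orf80* on the same strand, which had 2 to 19 counts. No other member shared more than 5.9% with any 1 gene. The levels of *FNTB* and *RCE1* are uncertain to that extent.

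Levels of different genes were compared per kilobase of exon, taking all exons of a gene together. In scramble libraries *HRAS* was the highest of the 9, at 43.3 ± 4.92 CPM per kb, followed by *ICMT* at 29.9 ± 1.04 and *NRAS* at 14.8 ± 0.508 CPM per kb. The transferase subunits *FNTA* (6.85 ± 0.617) and *FNTB* (5.12 ± 0.342) came next. *PDE6D* (3.82 ± 0.122), *ZMPSTE24* (3.52 ± 0.974) and *RCE1* (2.93 ± 0.285 CPM per kb) formed a lower group, and *PGGT1B* was the lowest at 1.07 ± 0.171 CPM per kb. *ZMPSTE24* overlapped both *PDE6D* and *RCE1*, so their order is not settled. Every other neighbouring pair was separate and in the same order in 3 of 3 libraries (exact permutation of signs, two-sided p = 0.25, the smallest that 3 libraries allow). The place of *FNTB* also depends on how reads in the exon bases it shares with *CHURC1-FNTB* were counted, which is not given.

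In siSNHG15 libraries *HRAS* (40.1 ± 7.16 CPM per kb) and *ICMT* (14.0 ± 0.870 CPM per kb) again headed the order by this length. *NRAS*, at 5.44 ± 0.454 CPM per kb, stood among *FNTA* (6.38 ± 0.824), *FNTB* (5.49 ± 0.336), *PDE6D* (5.18 ± 0.746) and *ZMPSTE24* (4.89 ± 0.750). From *FNTA* to *ZMPSTE24*, each overlapped its neighbour in the order. *RCE1* (2.29 ± 0.267) and *PGGT1B* (1.01 ± 0.345 CPM per kb) were again the lowest and did not overlap a neighbour.

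Within a library, the ratio of *NRAS* to *HRAS* per kilobase was 0.312, 0.367 and 0.350 in scramble and 0.106, 0.135 and 0.179 in siSNHG15 libraries. The mean ratio was thus 0.343 ± 0.0278 in scramble and 0.140 ± 0.0363 in siSNHG15, and no library of either condition came near the other. The ratio of *ICMT* to *RCE1*, the enzymes that follow each other at the endoplasmic reticulum, was 10.3 ± 1.06 and 6.22 ± 1.17. The ratio of *FNTA* to *FNTB* was 1.35 ± 0.198 and 1.17 ± 0.226, and is uncertain because of the shared *FNTB* exon bases. These orders and ratios depend on the length that is used, apart from *HRAS* as the highest and *PGGT1B* as the lowest, which held with every length tried. With the longest transcript of each gene, *PDE6D* moved from the sixth place to the fourth in scramble (9.47 CPM per kb) and to the third in siSNHG15 libraries (12.8 CPM per kb). There *NRAS*, at 5.44 CPM per kb, was below *FNTA* (8.19), *FNTB* (7.65) and *ZMPSTE24* (5.86 CPM per kb) and was the seventh of the 9. With the canonical transcript, a length chosen after seeing the data, *FNTA* was above *ICMT* in both conditions, at 38.6 against 30.7 CPM per kb in scramble and 35.98 against 14.4 CPM per kb in siSNHG15 libraries. The mean ratio of *NRAS* to *HRAS* was then 0.150 and 0.0598, that of *ICMT* to *RCE1* 5.09 and 3.06, and that of *FNTA* to *FNTB* 5.42 and 4.71, in scramble and siSNHG15 libraries.

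**Figure D4:**
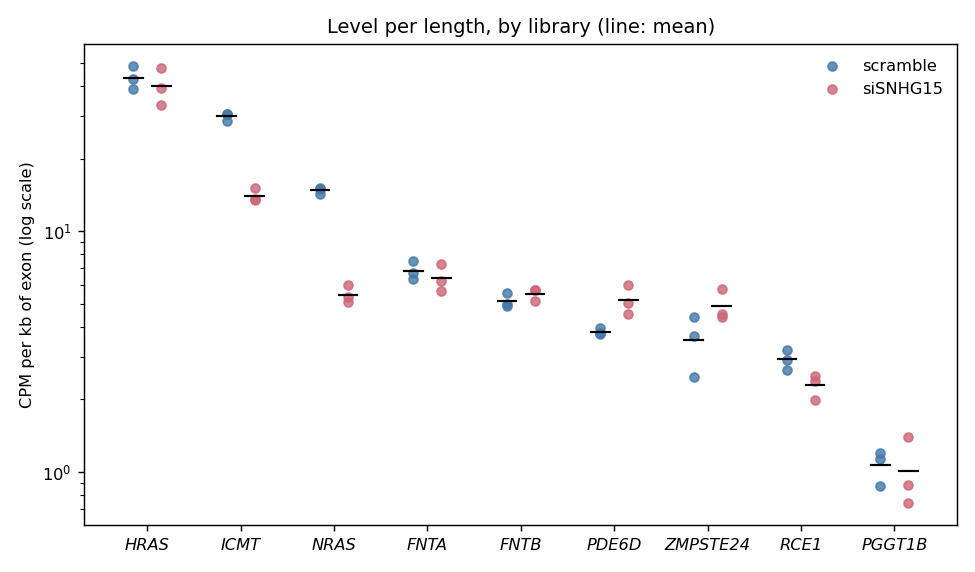
Level per kilobase of exon (CPM per kb, logarithmic axis) of the 9 members in scramble (blue) and siSNHG15 (red) libraries, each point a library and each line a mean, in the scramble order. *HRAS* (43.3 in scramble) is highest and *PGGT1B* (1.07) lowest, and the siSNHG15 points of *NRAS* (mean 5.44) fall among those of *FNTA*, *FNTB*, *PDE6D* and *ZMPSTE24*.

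Neighbouring genes of *NRAS* and *ICMT* are given for comparison, and none of the 3 described here passed the threshold. *BCAS2*, the nearest gene tested toward lower coordinates from *NRAS*, lies 122840 bases away and had a log2 fold change of -0.20 (SE 0.13). Beside *ICMT* lie *RNF207*, with a log2 fold change of 0.46 (SE 0.22), and the noncoding *ICMT-DT*, with 0.97 (SE 0.38) and 6 to 19 counts per library. Both overlap *ICMT* on the opposite strand.

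Some genes had nearly the same profile as *NRAS* or *ICMT* over the 6 libraries, measured as the root mean square distance of log2 CPM after centring each gene. For *NRAS* these were *KDELR2*, a receptor that returns proteins to the endoplasmic reticulum (0.116), *RNASEH2C*, a subunit of RNase H2 (0.162), and *SLC25A4*, a mitochondrial ADP/ATP carrier (0.163). For *ICMT* they were *CHRNB1*, an acetylcholine receptor subunit (0.0878), the ribosomal protein pseudogene *RPL36AP43* (0.0988), whose reads may come from its parent gene, and *MICAL2*, an actin-oxidizing enzyme (0.111). Since *NRAS* and *ICMT* were lower in siSNHG15 libraries, genes chosen for this likeness are lower there too.

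Beyond the 9 members, 118 genes of the surrounding pathway were listed from general knowledge, in 8 lists, and 97 were tested. The lists were written with earlier results of these data known. 6 of the 97 passed the threshold, 2 higher and 4 lower, where 5.36% of all genes tested passed (3.13% as higher and 2.23% as lower). In total this was near the share over all genes, so the calls named below describe single genes and not the lists. An unadjusted p under 0.05 was reached by 18 of the 97 and by 22.5% of all genes tested. The median log2 fold change of the 97 was 0.06, 56 were higher and 41 lower in sign, and 28 did not overlap between conditions. Over all genes tested, 6260 were higher and 6247 lower in sign and 28.8% did not overlap, so the share without overlap in the lists was at the background. With upper-quartile scaling the calls were 3 higher and 1 lower.

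None of the 9 tested genes of isoprenoid synthesis, which supply the farnesyl and geranylgeranyl lipids, passed the edgeR threshold (median log2 fold change 0.15). Of these genes, 0 had an unadjusted p under 0.05, where 22.5% of all genes tested did. The same held for the 13 genes of RAS palmitoylation and trafficking, some of which add or remove palmitate (such as *ZDHHC9* and *LYPLA1*) while others carry or release lipid-modified proteins (such as *ARL2* and *UNC119*), with 0 under an unadjusted p of 0.05 (median 0.06). Of 5 genes of RAB prenylation, which lipidates the vesicle GTPases, only *RABGGTB*, the catalytic beta subunit of the RAB geranylgeranyl transferase, passed. It fell from 48.7 ± 6.41 to 32.4 ± 5.57 CPM (log2 fold change -0.60, SE 0.16, edgeR adjusted p = 0.0486).

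Upstream of RAS, 6 of 12 listed activators were tested and 1 rose. *PTPN11*, which encodes the phosphatase SHP2 that links receptors to RAS, was at 58.6, 53.8 and 45.4 CPM in scramble and 88.0, 80.8 and 80.2 CPM in siSNHG15 libraries, with no overlap. Its log2 fold change was 0.65 (SE 0.13, edgeR adjusted p = 0.0163). Of 11 tested inactivators, 1 fell. *RASA3*, a GTPase-activating protein, went from 66.7 ± 3.53 to 45.8 ± 6.27 CPM (log2 fold change -0.54, SE 0.14, edgeR adjusted p = 0.0416).

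Downstream, 2 of 19 tested effectors passed, in opposite directions. *MAP2K1*, which encodes the kinase MEK1 of the RAF to ERK cascade, was at 173, 193 and 168 CPM in scramble and 84.0, 119 and 109 CPM in siSNHG15 libraries. The log2 fold change of -0.78 (SE 0.14, edgeR adjusted p = 0.00911) had the smallest p of the 97. *AFDN*, a RAS-binding protein of cell junctions, rose from 21.8 ± 3.02 to 33.3 ± 3.28 CPM (log2 fold change 0.59, SE 0.15, edgeR adjusted p = 0.0443). Neither condition overlapped the other in these effectors.

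Among 18 tested GTPases that also end in a CAAX motif, *RHEB*, the activator of mTORC1, was the only gene that passed. It fell from 241 ± 12.0 to 164 ± 29.8 CPM (log2 fold change -0.56, SE 0.14, edgeR adjusted p = 0.0397), and the median of the 18 was -0.03. Of the 18, 6 had an unadjusted p under 0.05, where 22.5% of all genes tested did. Of 16 other proteins with a CAAX motif, 0 passed (median log2 fold change -0.05). An unadjusted p under 0.05 was reached by 3 of the 16, near the 22.5% of all genes tested. The log2 fold changes of the 16 ranged from -0.35 to 1.10. The upper end is *PTP4A3*, named after its values were seen, which rests on 10, 9 and 1 counts in scramble and 15, 14 and 15 counts in siSNHG15 libraries.

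The 6 called genes kept their direction in all fits, but each lost the call in at least 1. With all libraries kept, *MAP2K1* and *PTPN11* passed in 6 of 6 alternatives. The edgeR adjusted p of *RABGGTB*, *RASA3* and *RHEB* was 0.0555, 0.0550 and 0.0503 with upper-quartile scaling, and 0.0598, 0.0533 and 0.0516 when 10 counts were required in each library. With the replicate block, the edgeR adjusted p of *RABGGTB*, *RASA3* and *AFDN* was 0.0673, 0.0584 and 0.0701. When 1 library was left out, calls over all genes lay between 139 and 812, against 671 with all libraries. *MAP2K1* passed in 5 of 6 such fits and *PTPN11* in 4, but *RHEB* and *RASA3* in 2, *RABGGTB* in 1 and *AFDN* in 0. Their log2 fold changes stayed of similar size in these fits, at -0.88 to -0.65 for *MAP2K1*, 0.56 to 0.73 for *PTPN11*, -0.68 to -0.43 for *RHEB*, -0.64 to -0.45 for *RASA3*, -0.74 to -0.51 for *RABGGTB* and 0.50 to 0.68 for *AFDN*. Without scramble replicate 2, the deepest library, none of the 6 passed, and *MAP2K1* had an edgeR adjusted p of 0.0630. The 3′ UTRs of *AFDN*, *MAP2K1*, *RABGGTB* and *RASA3* held 1 guide seed match each, and those of *PTPN11* and *RHEB* held 0. Their part in these differences was not tested.

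**Figure D5:**
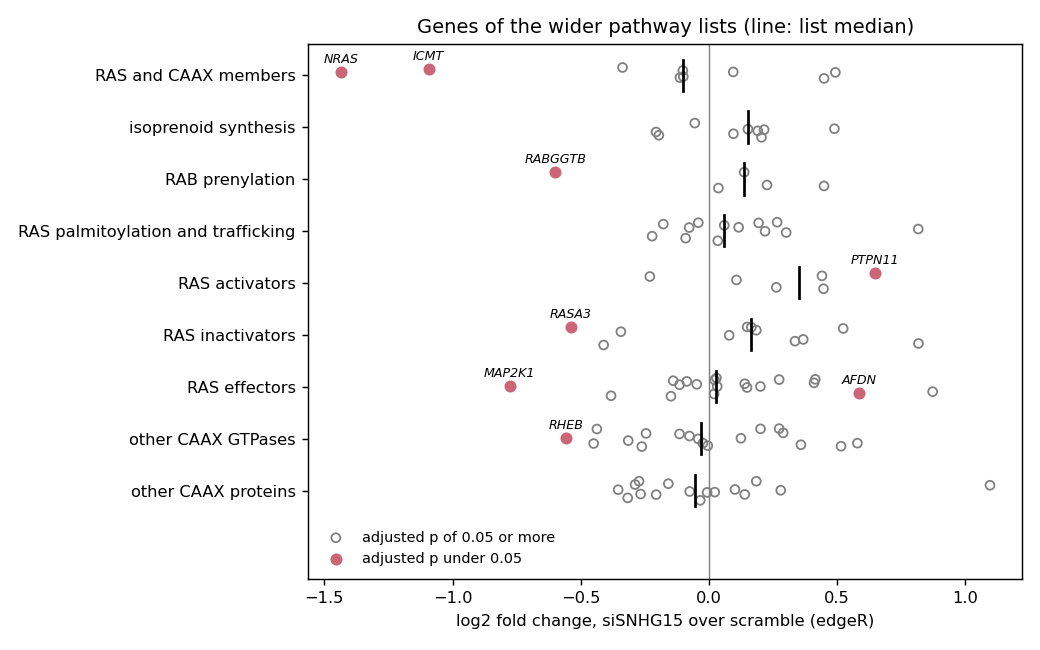
Log2 fold change of siSNHG15 against scramble (horizontal axis) for each tested gene of the 8 pathway lists and of the 9 members, one row per list, with genes past the adjusted threshold filled and named and a vertical line at each list's median. The 6 filled points of the 8 lists lie between -0.78 (*MAP2K1*) and 0.65 (*PTPN11*), inside the values of *NRAS* and *ICMT* on the lower side.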

How the data were processed

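RNA of 3 scramble and 3 siSNHG15 cultures, which the study's methods call biological replicates, was sequenced from stranded poly(A) libraries. The deposited values are raw counts of reads per gene, made by the authors. The submitters' processing notes list STAR, featureCounts and hg19, whereas the study's methods name bowtie2. The annotation, the strand setting and the treatment of reads with several positions are not given in the sources used here. Conditions and replicate numbers came from the sample labels.

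Counts were filtered with filterByExpr (minimum count 10, total 15), scaled with TMM and fitted with edgeR 4.0.16 in R 4.3.3 over 12507 genes, by the quasi-likelihood test with Benjamini-Hochberg adjustment at 0.05. The edgeR step was also run on simulated counts in which all genes had the same dispersion. That run was a check of the code and does not measure error rates in these data. Intervals are 95% intervals of the fit. Depth was 3446922 to 10256710 counts, and markers at 3 or fewer counts were treated as at the floor. Positions and lengths came from GENCODE release 44 on GRCh37. 8012 identifiers had no symbol there, and *PECAM1*, a listed marker, was not matched. Seed matches were exact 7-base matches in the 3′ UTR of 1 canonical transcript per gene.

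The members and lists were chosen with earlier results of these data known. All members are named, as are up to 3 genes per list and direction past the threshold, the nearest tested neighbours of *NRAS* and *ICMT* (of which 1 is not reported here) and the 3 genes with the most similar profile. Alternatives were DESeq2 1.42.0, other scaling, other filters, a replicate block and leaving out each library.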

Additional observations from a re-analysis of the deposited data

How the results depend on the processing

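*NRAS* and *ICMT* were the only members called, both lower, in each of 6 alternatives on all libraries and in each of 6 fits without 1 library. No direction past the threshold was reversed under any of these. For the 97 genes of the wider lists, 2 higher calls became 1 and 4 lower calls became 2 with the replicate block, and 4 lower calls became 1 with upper-quartile scaling and also 1 when genes needed 10 counts in all 6 libraries. The fit that needed 10 counts tested 89 of the listed genes. DESeq2 tested 99 of them and called 2 higher and 5 lower. Without 1 library, 97 or 98 were tested, and the higher calls ranged from 0 to 1 and the lower calls from 0 to 4. Over all genes, 671 of 12507 tested were called, against 1312 of 23675 without the filter and 543 of 12507 with the block. With 1 library left out, calls ranged from 139 of 12658 (without scramble replicate 2) to 812 of 12803 (without siSNHG15 replicate 1). The cause of these differences was not tested. The deviations of same-numbered libraries from their condition means correlated at -0.07, 0.16 and -0.04. Not every library correlated best with its own number. With 3 libraries per condition, such correlations cannot settle whether the replicate numbers pair the cultures. The shallowest library, with 3446922 counts, and the 29 to 121 counts per library of *PGGT1B* limit what could be seen for the members of low level.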
